A study of Homo sapiens with 6 samples.

Results

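Peaks of HSP70-bound RNA that lay on protein-coding genes and on no other kind of gene numbered 1679, of 8169 peaks on chromosomes 1 to 22 (20.6%) and of 9974 peaks in all. They come from 4 peak lists, made by FLASH-seq for tagged HSPA1A and tagged HSPA8. A peak was taken when it shared at least 1 bp with a RefSeq GRCh38.p14 protein-coding gene and none with a gene of any other biotype. Genes of ribosomal proteins, of the elongation factors EEF1A1, EEF1B2, EEF1G and EEF2, and of the main heat shock proteins were left out, as were IGF2R, LINGO1, SLCO5A1, HFM1 and PDE3A. This left 18328 genes that could carry such a peak. The lists of HSPA1A replicates 1 and 2 held 532 and 284 of the peaks, and those of HSPA8 replicates 1 and 2 held 745 and 118.

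The cells were HEK293 Flp-In T-Rex, a long-established line from human embryonic kidney that carries its transgene at a fixed site under tetracycline control. Each library came from cells that expressed GFP, HSPA1A or HSPA8 with a 3xFLAG-HBH tag after 1 µg/ml tetracycline, with 2 biological replicates per bait. FLASH-seq freezes contacts between RNA and protein with ultraviolet light, purifies the tagged protein on nickel and then streptavidin beads, and sequences the RNA that stays attached. All groups carry the same tag and induction, and the tagged protein is made beside the cell's own HSP70. GFP, the control bait, is not analysed here. From the lists used here alone, binding and RNA abundance cannot be told apart.

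HSP70 proteins are chaperones that grip short unfolded stretches of protein and release them in a cycle driven by ATP. HSPA8 is made at all times, and HSPA1A is the form induced by heat and other stress. Proteins of this family have also been found to bind RNA, among others messenger RNA with AU-rich stretches. A protein-coding gene is copied into a precursor RNA that contains introns, and most of the length of a long gene is intron.

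Of 1318 regions made by merging overlapping peaks of the 4 lists on the same strand, 8 reached into a RefSeq promoter window of the gene that carried them, on its strand. These are peaks whose bases can be read from the tables used here. A window runs from 250 bases before a transcript start to 50 after it, and a gene can have several such starts. For 6 of the 8 genes, 60 bases around the start in question are shown, 5′ to 3′ on the gene's strand, to show what RNA such a peak covered. Capitals mark bases inside the peak, and position 0 is the first base of that transcript start. It is the gene's outermost base for RAN and SLC25A3. It lies inside the gene, 218 bases from that base for ALDOA, 400 for HNRNPK, 15691 for HDGF and 23094 for SMARCA4. The peaks came from 1 list each and had the authors' score of 5, or 6 at SMARCA4. The genes encode the glycolytic enzyme aldolase A, the growth factor HDGF, the RNA-binding protein hnRNP K, the nuclear transport GTPase RAN, the mitochondrial phosphate carrier SLC25A3 and the chromatin remodelling ATPase SMARCA4.
ALDOA: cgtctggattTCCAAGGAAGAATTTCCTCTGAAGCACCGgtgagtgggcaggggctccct
HDGF: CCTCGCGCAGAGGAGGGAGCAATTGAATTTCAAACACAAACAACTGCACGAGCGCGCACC
HNRNPK: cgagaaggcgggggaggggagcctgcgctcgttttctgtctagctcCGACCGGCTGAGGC
RAN: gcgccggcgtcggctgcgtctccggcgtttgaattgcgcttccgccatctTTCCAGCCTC
SLC25A3: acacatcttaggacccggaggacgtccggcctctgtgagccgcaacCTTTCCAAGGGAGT
SMARCA4: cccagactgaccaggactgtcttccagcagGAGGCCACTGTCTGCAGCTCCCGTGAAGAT

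The ALDOA window lies at chr16:30064467-30064526 on the plus strand, and its 29 bp peak, from HSPA8 replicate 1, covered positions -20 to 8. The peak stopped directly before the letters gtgagt. Introns nearly always begin with GT, and GTGAGT stands, at any place and on either strand, in 499 of 21041 windows of this length (2.37%). How often it directly follows a peak was not counted. The SMARCA4 window lies at chr19:10984094-10984153 on the plus strand. Its 62 bp peak, from HSPA8 replicate 1, began at position 0, an inner start of the gene, directly after the letters ag. Before the peaks of ALDOA, HNRNPK, RAN and SLC25A3 stood tt, tc, ct and ac. Whether any peak edge is a splice site was not tested. The HDGF window at chr1:156751646-156751705, on the minus strand, lay wholly inside a 76 bp peak of HSPA8 replicate 1 that began 38 bases before position 0, which is an inner start of the gene. HNRNPK at chr9:83980186-83980245 on the minus strand, also from HSPA8 replicate 1, had a peak that began at position 16. RAN at chr12:130872036-130872095 and SLC25A3 at chr12:98593656-98593715, both on the plus strand and from HSPA1A replicate 1, had peaks that began at positions 20 and 16. G and C made up 55.0 to 68.3% of the 6 windows, with a median of 60%, against a median of 63.3% over all windows.

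In share of peaks, protein-coding genes alone took 21.8% (95% Wilson interval 20.2 to 23.5) of the peaks on chromosomes 1 to 22 in HSPA1A replicate 1 and 14.7% (13.2 to 16.4) in replicate 2. The share was 30.4% (28.6 to 32.3) in HSPA8 replicate 1 and 8.75% (7.36 to 10.4) in replicate 2. Both baits were thus higher in replicate 1, and the HSPA8 lists enclosed those of HSPA1A. HSPA1A had a mean of 18.3% ± 5.00 (SD, n = 2) and HSPA8 one of 19.6% ± 15.3 (SD, n = 2). The difference of -1.34 percentage points lay within the replicate spread (two-sided exact permutation test, p = 1). Between baits, 4 lists allow no p under 0.33 in such a permutation test. It was -8.64 points between the lists of replicate 1 and 5.96 between those of replicate 2. In number, HSPA1A had 408 ± 175 peaks (SD, n = 2) and HSPA8 432 ± 443 (SD, n = 2), a ratio of 1.06 (two-sided exact permutation test, p = 1). With a score at or above each list's own median the ratio turned to 0.559 and the share difference to 3.08 points (exact permutation test, p = 0.33 for each). The intervals cover counting error over peaks alone, since read depth is unknown and neighbouring peaks are not independent. For HSPA1A they covered 25.2 and 11.8 kb in replicates 1 and 2, and for HSPA8 40.9 and 5.25 kb.

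**Figure D1:**
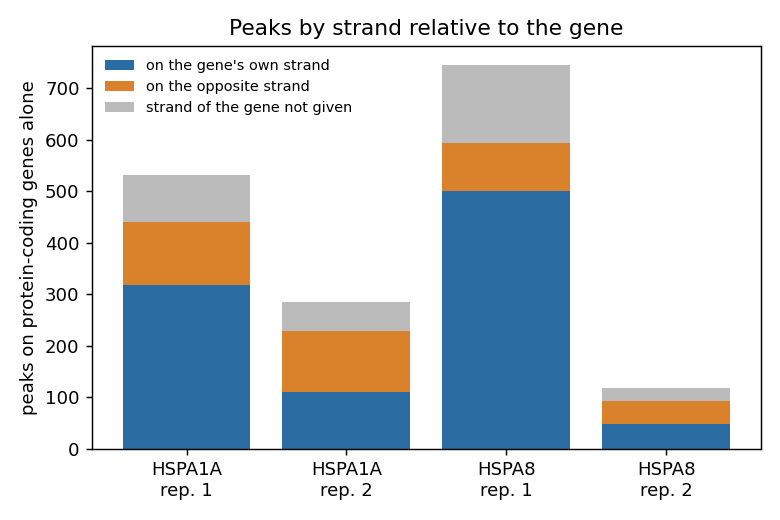
Number of peaks on protein-coding genes alone in each list (vertical axis, peaks), split by whether the peak lay on the strand of its gene, on the opposite strand, or on a gene whose strand the reference tables do not give. The lists of replicate 1 hold 532 and 745 peaks and those of replicate 2 hold 284 and 118, and the own-strand part is largest in HSPA8 replicate 1, at 501 peaks.

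These peaks stood low in the score order of their lists. The score is a whole number that the authors gave to each peak, of unstated meaning, so scores are ranked or split here inside a list alone. For HSPA1A replicates 1 and 2 and HSPA8 replicates 1 and 2, in this order, its median was 5, 8, 5 and 10, against 13, 15, 14 and 20 for the other peaks on the same chromosomes. Values of 4 lists are given in this order from here on. As a percentile within the list, the median was 13.3, 32.3, 15.5 and 30.7, against 56.9, 53.3, 62.9 and 51.8. The difference averaged -33.3 percentile points and was negative in 4 of 4 lists (exact sign-flip permutation over lists, two-sided, p = 0.13, the smallest possible). Among peaks at or above the list's median score it was -21.4 (exact sign-flip permutation, p = 0.13). Scores under 10 were held by 79.7%, 56.3%, 88.2% and 49.2% of the peaks. The highest scores were nevertheless 716, 680, 942 and 294. The median width was 44, 41.5, 52 and 48.5 bp against 47, 44, 51 and 49 bp, a mean difference of -1.25 bp with no common direction (exact sign-flip permutation, two-sided, p = 0.375). It was -10.5 bp among peaks at or above the median score (exact sign-flip permutation, p = 0.25).

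Most of these peaks were seen in 1 list. Of the 532 and 284 peaks of HSPA1A, 21.6% (interval 18.3 to 25.3) and 40.5% (34.9 to 46.3) overlapped any peak of the other replicate. Of the 745 and 118 of HSPA8, 9.80% (7.87 to 12.1) and 61.9% (52.9 to 70.1) did so. The other peaks of the same lists did so in 57.4%, 78.4%, 46.1% and 83.7%, and the mean difference was -33.0 points, negative in 4 of 4 lists (exact sign-flip permutation, two-sided, p = 0.13). It shrank to -16.8 points for peaks at or above the list's median score (exact sign-flip permutation, p = 0.13). Under a reciprocal overlap of 50% it was -17.2 points and no longer negative in all 4 lists (exact sign-flip permutation, p = 0.25). Peaks met in no other list made up 68.6%, 49.6%, 82.0% and 5.08% of the 4 lists in the same order, against 24.6%, 14.6%, 25.3% and 2.44% of the other peaks. The short list of HSPA8 replicate 2 therefore held almost only peaks that another list also held. It overlapped HSPA1A replicate 2 in 88.1% and HSPA1A replicate 1 in 77.1% of its peaks. As a percentage of the shorter list, overlap within baits averaged 51.2% and between baits 54.5%, a difference of -3.31 points (exact permutation over splits of the lists into pairs, p = 0.667). Over pairs from different baits it ran from 23.1% to 88.1%.

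Among the 1318 regions, 1124 (85.3%) were in 1 list, 95 in 2, 36 in 3 and 63 (4.78%) in all 4. HSPA8 replicate 1 alone held 612, HSPA1A replicate 1 alone 365, HSPA1A replicate 2 alone 141 and HSPA8 replicate 2 alone 6. Of regions in exactly a pair of lists, 44 were in both lists of replicate 1 and 18 in both of replicate 2. Both lists of HSPA1A alone held 23, and both lists of HSPA8 alone held 0, where HSPA8 replicate 2 had only 118 peaks in all. A non-coding gene lay within 1000 bp of 66 regions (5.01%). This was so for 11 of the 44 regions found only in both lists of replicate 1 (25.0%), for 4.36% of regions in 1 list and for 4.76% of those in all 4. The part of such neighbours in these regions was not tested.

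The strand of a peak relative to its gene differed widely between lists. The reference tables gave a strand for 14531 of the 18328 genes (79.3%) and for the genes of 1356 peaks (80.8%). On the strand of the gene, where a transcript of the gene would place its reads, lay 318 of 441 peaks (72.1%, interval 67.7 to 76.1) in HSPA1A replicate 1 and 109 of 229 (47.6%, 41.2 to 54.1) in replicate 2. In HSPA8 replicate 1 it was 501 of 593 (84.5%, 81.4 to 87.2), and in replicate 2 it was 48 of 93 (51.6%, 41.6 to 61.5). Both lists of replicate 2 were thus near an even split, and both lists of replicate 1 were well above it. The HSPA1A lists averaged 59.9% ± 17.3 (SD, n = 2) and the HSPA8 lists 68.0% ± 23.2 (SD, n = 2). This difference of -8.20 points also lay within the replicate spread (two-sided exact permutation test, p = 0.667). For comparison, peaks on the genes left out by rule, such as those of ribosomal proteins and elongation factors, lay on the gene's strand in 17 of 18, 7 of 8, 28 of 29 and 5 of 6 cases.

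Pooled over lists, the own-strand share was lower for regions held by more lists, and within each list it was lower for higher-scoring peaks. Regions in 1 list were on the gene's strand in 749 of 921 cases (81.3%, interval 78.7 to 83.7). The share was 58.1% (46.7 to 68.7) for regions in 2 lists, 54.8% (37.8 to 70.8) for those in 3 and 45.8% (32.6 to 59.7) for those in all 4. Within single lists the order was not uniform. Regions of HSPA8 replicate 1 alone reached 91.3%, those of HSPA1A replicate 1 alone 79.9% and those of HSPA1A replicate 2 alone 42.9%. By peaks, those in several lists minus those in 1 gave differences of -26.1, 9.28, -40.8 and 1.72 points in the 4 lists. The mean was -14.0 points, and the difference was negative in 2 of 4 lists, both of replicate 1 (exact sign-flip permutation, two-sided, p = 0.5). By score, the share was 50%, 45.9%, 53.2% and 37.5% for peaks scoring at least 10 and 77.0%, 48.9%, 88.1% and 66.7% for lower ones. That difference averaged -23.5 points and was negative in 4 of 4 lists (exact sign-flip permutation, two-sided, p = 0.13, the smallest possible).

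**Figure D2:**
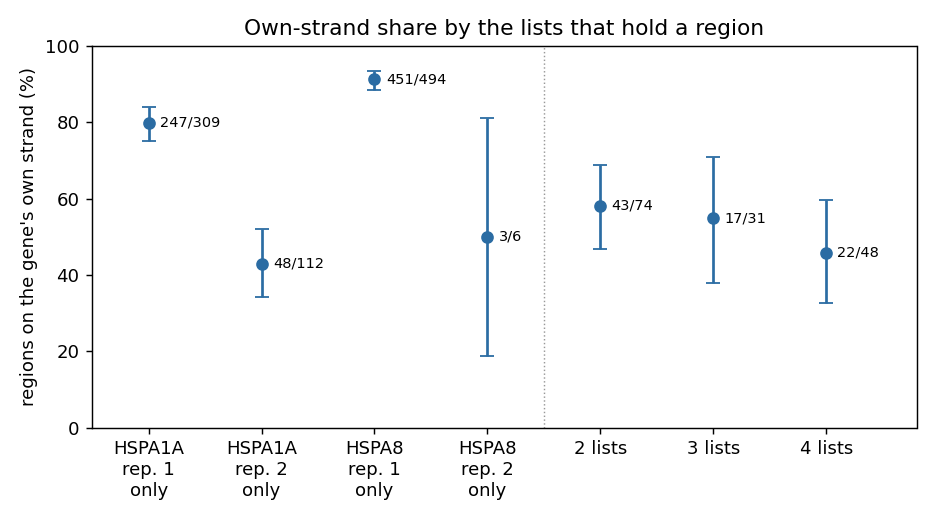
Percentage of regions on the strand of their gene (vertical axis), with 95% Wilson intervals as bars and the counts beside each point, for regions found in a single named list (left of the dotted line) and for regions in 2, 3 or 4 lists (right). Regions of the lists of replicate 1 alone stand at 79.9% and 91.3%, and all other points lie between 42.9% and 58.1%.

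Counted by gene, 459, 257, 628 and 102 of the 18328 eligible genes carried a peak in the 4 lists, which is 2.5%, 1.4%, 3.43% and 0.557% of them. In any list it was 1084 genes (5.91%). Both replicates agreed on 114 genes for HSPA1A (0.622%) and on 61 for HSPA8 (0.33%), and 52 genes carried a peak in all 4 lists (0.284%). Of the 18328 eligible genes, 26 had a peak in both lists of HSPA1A and neither of HSPA8, and 0 had the reverse. The list of HSPA8 replicate 2 had a peak at only 102 genes, 5 of them in no other list. The counts of 26 and 0 thus rest on lists of unlike length, and a difference between the baits was not tested. Both lists of replicate 1 alone shared 56 genes and both lists of replicate 2 alone 13. Related genes with the same scores are counted separately here. NOTCH2, NOTCH2NLA, NOTCH2NLB, NOTCH2NLC and NOTCH2NLR each scored 5 and 6 in the lists of replicate 1, and C4A and C4B each 7 and 5. Several NBPF genes each scored 5 in HSPA8 replicate 1 alone. Whether such genes share reads was not tested.

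Among genes with a peak in all 4 lists, SLC26A3, which encodes a chloride and bicarbonate exchanger of the gut, had the highest mean score percentile. Its region at chr7:107770197-107770272, on the gene's minus strand, scored 273 and 680 with HSPA1A and 135 and 294 with HSPA8. It was the top peak of this kind in both lists of replicate 2. SLBP, whose protein binds the stem-loop at the end of histone messenger RNAs, had a region at chr4:1707224-1707297, opposite to the gene, with scores of 169, 382, 73 and 162. INO80D, a subunit of the INO80 chromatin remodeller, had its region at chr2:206071258-206071323 on its own minus strand, with scores of 50, 111, 28 and 49. Among the 63 regions in all 4 lists, these 3 ranked higher in both lists of replicate 2 than in either list of replicate 1.

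RYR2, the calcium release channel of heart muscle, led both lists of replicate 1. Its region at chr1:237603164-237603226, on the gene's plus strand, scored 716 and 942 there for HSPA1A and HSPA8 and 78 and 66 in the lists of replicate 2. AAMDC, overlapped by the Integrator subunit gene INTS4, had a region at chr11:77886586-77886646 on the strand of AAMDC, with 664 and 857 in replicate 1 and 76 and 63 in replicate 2. FAM234B at chr12:13046155-13046234, on its own plus strand, scored 362 and 634 in replicate 1 and 164 and 115 in replicate 2. UNC45B, a myosin chaperone gene, had its main region at chr17:35151124-35151164 on the minus strand, with 355 and 453 in replicate 1 and 110 and 99 in replicate 2. A neighbouring UNC45B region at chr17:35151216-35151258 scored 208 and 248 against 14 and 13. Among the 63 regions, those of RYR2, AAMDC and the neighbouring region of UNC45B ranked higher in both lists of replicate 1 than in either list of replicate 2, the opposite of SLC26A3, SLBP and INO80D. The FAM234B region ranked 3 in every list, and the main UNC45B region ranked 4, 5, 4 and 4.

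The carbonic anhydrase relative CA8 scored 104, 34, 224 and 26 in the 4 lists at chr8:60243603-60243641. RAI14, which encodes an actin-binding ankyrin repeat protein, scored 78, 37, 87 and 34 at chr5:34802310-34802365 on its own plus strand. The tables give no strand for CA8 or UNC45B.

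The 63 regions in all 4 lists, which lie in 51 genes, were then ranked by score within each list. The rank order followed the replicate number and not the bait. Spearman's rho over the 63 regions was 0.936 between the lists of replicate 1 and 0.855 between those of replicate 2. Between the replicates of a bait it was 0.0911 for HSPA1A and 0.196 for HSPA8. With 1 region per gene (51 regions) these were 0.945, 0.848, 0.206 and 0.355. The values describe regions of the same libraries, which are not independent, and the sources used here do not say whether libraries of the same number were prepared or processed together. Of the 63 regions, 28 ranked higher in both lists of replicate 1 than in either list of replicate 2, and 25 the other way. For the baits, 1 region ranked higher in both HSPA1A lists and 2 in both HSPA8 lists.

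A strong lean to replicate 1 was that of the neighbouring UNC45B region, which ranked 7 and 6 in the lists of replicate 1 and 48 and 40 in those of replicate 2. The largest lean to replicate 2 was that of SORCS3, a sorting receptor gene, at chr10:104684780-104684836 opposite to the gene, with 16 and 11 against 71 and 31 (named after its values were seen). The groups also differed in width: the median was 41 bp for the 28 regions higher in replicate 1 and 60 bp for the 25 higher in replicate 2. On the gene's strand lay 12 of 22 of the former and 7 of 20 of the latter. The former include several neighbouring regions each of RYR2 and AAMDC, on the gene's strand, and of DLG2, opposite to it. The counts and the widths are thus not of separate sites.

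**Figure D3:**
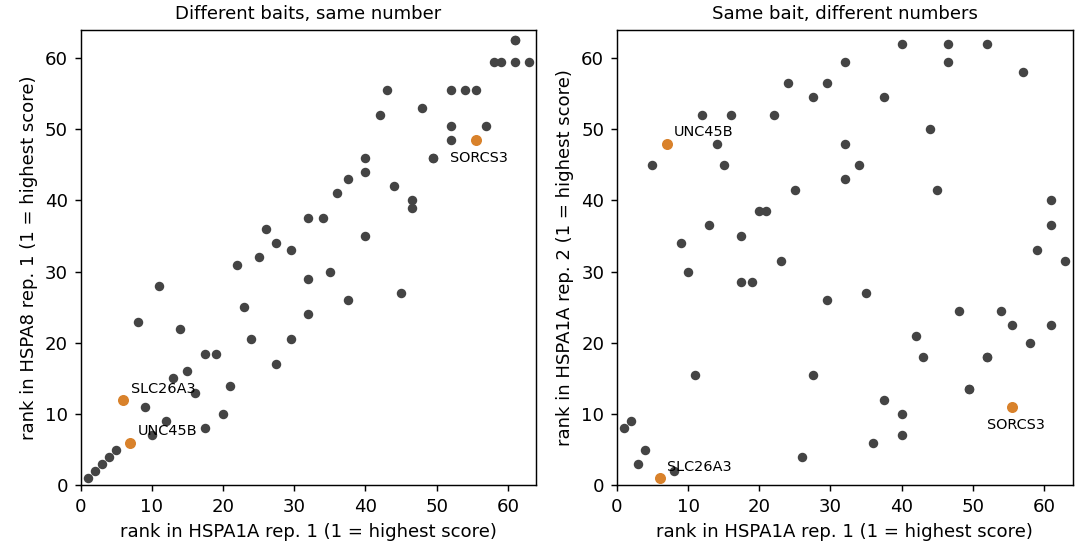
Score ranks of the 63 regions found in all 4 lists, rank 1 being the highest score; each point is a region, and the orange points are the neighbouring UNC45B region, the SLC26A3 region and the SORCS3 region. Between HSPA1A and HSPA8 in replicate 1 (left) the points follow the diagonal (rho 0.936), and between the replicates of HSPA1A (right) they scatter (rho 0.0911).

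Several of these regions shared their whole score pattern with a region elsewhere. A match was called, by a rule chosen after seeing the data, where each list's score was within 10% or 1 unit and the widths within 3 bp. The 10% was of the score of the region for which a match was sought, so a match need not hold both ways. The rule was met by 14 of the 63 regions (22.2%), 9 with a region of the same kind and 9 with a region outside it. SMG6 and UHRF2, given below as partners of RBMS3 and TMEM132C, are not among the 14. Of the other 585 regions in all 4 lists, 227 had such a match (38.8%). FAM234B, with 362, 164, 634 and 115, matched a region on the 5S rRNA pseudogene RNA5SP370 inside NFYB, with 371, 167, 653 and 113, and another on RNA5SP389, with 367, 163, 646 and 113. RAI14 matched FIG4, a phosphoinositide phosphatase gene, where a 56 bp region at chr6:109753169-109753224 scored 77, 37, 87 and 34. Both also matched 56 bp regions on the 5S pseudogenes RNA5SP298, RNA5SP481 and RNA5SP161. The RAI14 region lay on the gene's strand and that of FIG4 opposite to it.

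BTAF1, a regulator of the TATA-binding protein, had a 30 bp region opposite to the gene with scores of 41, 17, 27 and 11, and a 30 bp region on the U1 RNA variant RNVU1-27 had 40, 17, 27 and 10. ELAVL2, a neuronal RNA-binding protein gene, and FTCDNL1 had 19, 53, 11 and 23 and 19, 53, 10 and 21. TMEM132C and UHRF2 had 20, 62, 12 and 30 and 20, 62, 12 and 27. The nonsense-mediated decay nuclease gene SMG6 and the RNA-binding protein gene RBMS3 had 70, 26, 128 and 12 and 74, 26, 141 and 13. No sequence of these regions was at hand, so whether matched regions hold the same letters was not tested.

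RYR2 and AAMDC each held a series of regions at nearly the same spacing, of which the main ones matched by the rule above and the flanking ones did not. From the start of its first region, RYR2 had regions at 0, 51, 120 and 210 bp, and AAMDC at 0, 51, 121 and 211 bp. The flanking regions of RYR2 scored 45, 10, 83 and 9, then 79, 12, 130 and 14, and after the main region 58, 10, 83 and 10. Those of AAMDC scored 48, 11, 93 and 9, then 88, 12, 145 and 14, and after the main region 30, 5, 37 and 5. A region on chromosome X with no gene, chrX:109054275-109054336, had nearly the same scores as both main regions, 681, 75, 856 and 64.

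**Figure D4:**
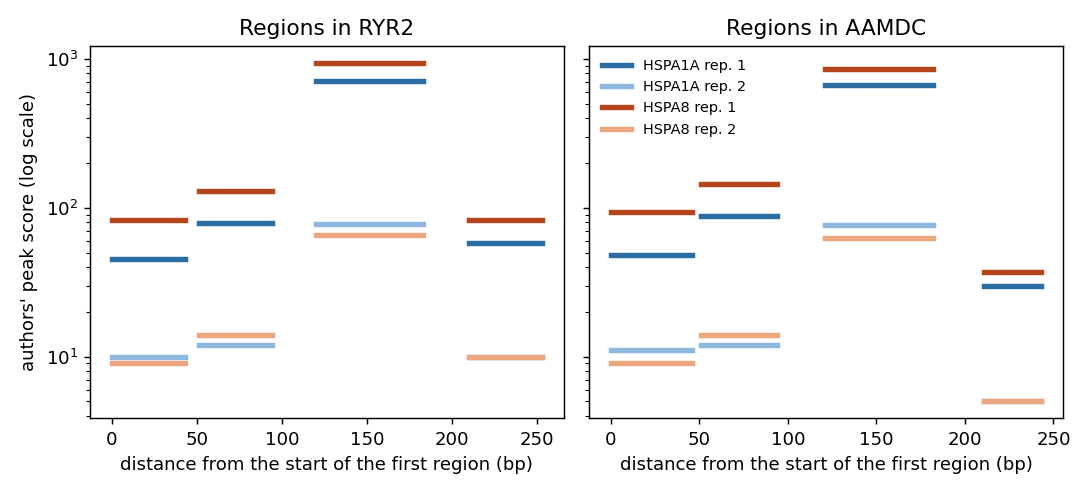
Score (vertical axis, log scale) of each region in RYR2 (left) and AAMDC (right) in the 4 lists, placed by distance in bp from the start of the first region; each bar spans a region, and where the replicate 2 bars of both baits coincide one hides the other. The spacing is alike in both genes, with the main and highest region 120 or 121 bp from the start; the last region scores 58 and 83 in replicate 1 for RYR2 and 30 and 37 for AAMDC.

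Some genes carried several peaks per list. The DLG2 gene, for a synaptic scaffold protein, carried 18 peaks (5, 4, 5 and 4), all opposite to the gene. Its main region at chr11:85484038-85484099 scored 155, 29, 137 and 19. RYR2 and AAMDC followed with 16 peaks each, 4 in every list. PID1, which encodes a phosphotyrosine interaction domain protein, had 11, with a main region at chr2:229180937-229180981 that scored 41, 14, 54 and 23. In these 4 genes the peaks of several lists lay in tight clusters, so counts of peaks per gene do not count separate sites along the transcript.

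Of the 26 genes found with both HSPA1A lists and neither HSPA8 list, 5 were named by their mean score percentile. The cadherin gene CDH18 scored 7 and 30 at chr5:20555409-20555457 on its own minus strand. SLC35F4, a solute carrier gene, scored 9 and 18 at chr14:57608788-57608811, opposite to the gene. NTM, for the neuronal adhesion protein neurotrimin, scored 5 and 25 at chr11:131440812-131440861 on its own plus strand. DNAJC3, a co-chaperone of HSP70 in the endoplasmic reticulum, scored 14 and 6 at chr13:95722812-95722839 on its own plus strand. NKAIN2 scored 5 and 20, but at different places and on opposite strands in the 2 replicates, so it was the same gene and not the same region. A peak absent from a list gives no value there, and a difference between the baits at these genes was not tested.

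Genes were next grouped by function, and the share with a peak in each list was read beside that of all eligible genes (2.5%, 1.4%, 3.43% and 0.557%). In 6 lists of widely expressed genes, given first, all peaks came from replicate 1 of either bait and scored at most 9. This grouping was not set beforehand. The nucleolar protein and RNA polymerase III lists, given below, likewise had 0 genes with a peak in replicate 2, and some other lists differed. The co-chaperones and the tRNA synthetases each had 1 gene with a peak in HSPA1A replicate 2. The proteasome list had 0 there but held a score of 13. Of 16 glycolysis genes, 4 carried a peak in HSPA8 replicate 1 (25.0%) and 0 in the other lists: GAPDH with 3 regions, ALDOA and GPI with 2 each, and PKM. All 8 of these lay on the gene's strand. The GAPDH regions, at chr12:6537309-6537390, chr12:6537729-6537816 and chr12:6538285-6538346, each scored 5. The second ALDOA region, besides that printed above, lay at chr16:30067234-30067265 and also scored 5.

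Of 22 actins and tubulins, ACTB, ACTG1 and TUBB carried a peak in HSPA8 replicate 1 and 0 in the other lists. The ACTB peak at chr7:5527164-5527319 scored 9. Of 51 translation initiation factors, 1, 0, 4 and 0 carried a peak in the 4 lists (EIF1, EIF2B3, EIF2S1, EIF3A and EIF5A), 4 of 4 with known strand on the gene's strand. Of 56 hnRNP, SR and snRNP proteins, the counts were 2, 0, 3 and 0 (HNRNPA2B1, HNRNPK, HNRNPLL, SF3B4 and SRSF11), with 7 of 7 peaks on the gene's strand. Of 91 nuclear-encoded respiratory chain genes, they were 1, 0, 3 and 0 (COX6B1, NDUFA9, SDHD and UQCRH), with 4 of 4. Of 70 replication-dependent histones, H2AC18 and H2AC19 carried a peak in HSPA8 replicate 1. These are near-identical copies, so that peak is uncertain between them. In these 6 lists, of 16 to 91 genes each, 0 genes had a peak in a list of replicate 2. All eligible genes had one in 1.4% and 0.557% there, and those under 10 kb in 0.144% and 0.0619%. At such shares few or 0 genes would be met in lists this small, and gene length was not matched. In HSPA8 replicate 1 the respiratory chain and histone shares were 3.30% and 2.86%, near the 3.43% of all eligible genes. Those of the other lists ran from 5.36% to 25.0%.

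Of 81 co-chaperones and other chaperones, the proteins that work beside HSP70, 4, 1, 1 and 0 carried a peak. They were the chaperonin subunit CCT3, the J-domain proteins DNAJB6 and DNAJC3, and the HSP90 partner PTGES3. DNAJC3 alone had it in both HSPA1A lists. Of 29 genes of the RNA polymerase III machinery, which the series title concerns, POLR1D carried a peak of score 5 in HSPA8 replicate 1. Of 39 proteasome genes the counts were 2, 0, 1 and 0. PSMB3 scored 13 in HSPA1A replicate 1 and 5 in HSPA8 replicate 1 at chr17:38761389-38761416, opposite to the gene. PSMD9 scored 5 in HSPA1A replicate 1. Of 24 nucleolar proteins, NOLC1, NOP9 and UTP20 carried a peak (1, 0, 2 and 0), and of 34 tRNA synthetases CARS2 and VARS1 did (0, 1, 1 and 0). Among peaks of known strand, 5 of 6 co-chaperone and 1 of 1 polymerase III peaks lay on the gene's strand. For proteasome, nucleolar and tRNA synthetase genes it was 1 of 3, 1 of 2 and 0 of 1.

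Larger families were zinc finger and cadherin genes. Of 486 zinc finger genes, 8, 7, 8 and 2 carried a peak and 18 did so in any list (3.70%, against 5.91% of all eligible genes). Their peaks lay on the gene's strand in 15 of 26 cases (57.7%). ZNF773 and ZNF84 had a peak in all 4 lists, in both cases opposite to the gene. ZNF773 scored 39 and 38 with HSPA1A and 50 and 6 with HSPA8 at chr19:57513043-57513065, and ZNF84 scored 12, 7, 10 and 7 at chr12:133047549-133047587. Of 49 cadherins and protocadherins, which are long cell adhesion genes, 1, 4, 4 and 1 carried a peak. They were CDH2, CDH12, CDH13, CDH18, CDH20 and PCDH10, with 7 of 7 peaks of known strand on the gene's strand.

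Longer genes carried peaks more often. The median length was 25.9 kb over eligible genes, 88.0 kb over genes with a peak in any list and 143 kb over those with a peak in all 4. Of 4845 genes under 10 kb, 0.475%, 0.144%, 0.743% and 0.0619% carried a peak in the 4 lists. Of 303 genes of 500 kb or longer, 16.2%, 14.2%, 12.2% and 5.28% did so. Per length the order was turned, from 2.12 peaks per Mb of sequence free of other genes in genes of 10 to 100 kb to 1.20 in genes of 100 to 500 kb and 0.872 in the longest. The own-strand share in these 3 classes, pooled over the 4 lists, was 74.2%, 72.8% and 56.4%. The lists differ in own-strand share, and their part in each class changed with length. HSPA8 replicate 1 had 326 genes at 10 to 100 kb and HSPA1A replicate 2 had 101, against 37 and 43 in the longest class. Whether the share falls with length within a list was not tested.

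**Figure D5:**
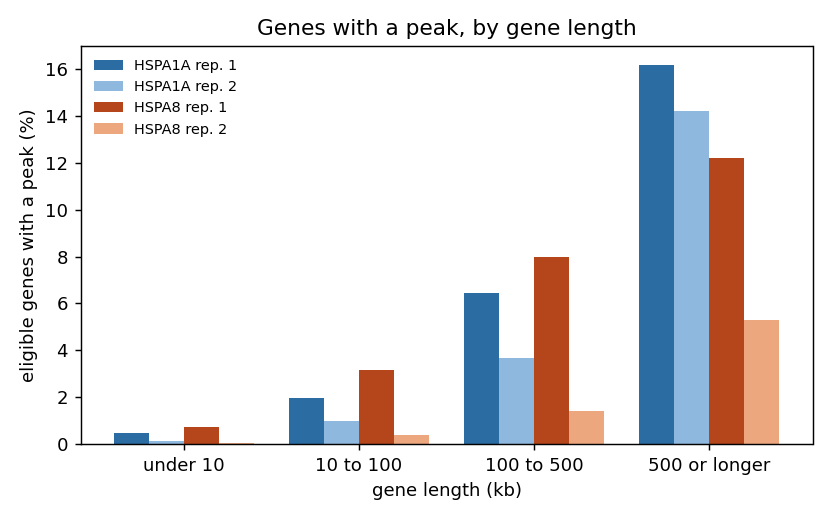
Percentage of eligible protein-coding genes with a peak (vertical axis) in each of the 4 lists, by gene length in kb. In every list the share rises over the 4 classes, in HSPA1A replicate 1 from 0.475% to 16.2%.

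Along the gene, own-strand peaks were found in every part of its length. In HSPA8 replicate 1 5 equal parts of the gene from start to end held 118, 92, 94, 89 and 108 of them, and in HSPA1A replicate 1 they held 73, 55, 57, 69 and 63. The lists of replicate 2 were less even on fewer peaks, with 23, 17, 13, 34 and 22 for HSPA1A and 11, 3, 7, 20 and 7 for HSPA8. Within 1000 bp of the gene's start lay 3.14%, 0.917%, 3.99% and 6.25% of own-strand peaks in the 4 lists. Within the same distance of its end lay 3.46%, 1.83%, 6.19% and 2.08%. Exons and introns could not be told apart, since the reference tables used here hold gene bounds alone.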

How the data were processed

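The data are 4 peak lists from FLASH-seq, 1 per biological replicate of HSPA1A and HSPA8. A deposited peak comes with its position, strand and the authors' score. The submitters' processing notes name Trim Galore 0.4.4, FastQC, STAR 2.6.0b, deepTools and GRCh38. Their roles, the peak caller, its threshold and the handling of reads with several matches are not given in the sources used here. A threshold or such handling could set which peaks exist and how often a low peak recurs. Per the labels, random tags served to merge PCR duplicates.

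Peaks were set against RefSeq GRCh38.p14 genes, ignoring strand. Gene strand came from the RefSeq promoter table. Peaks sharing at least 1 bp on the same strand were merged across lists into regions. Percentages have 95% Wilson intervals. Baits were compared on values per list by a two-sided exact permutation test, whose smallest p is 0.33, and within lists by an exact sign-flip permutation over the 4 lists. Correlations over regions carry no p.

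Named genes are the 10 of highest mean score percentile among those in all 4 lists, up to 5 per bait found in both its lists and neither list of the other (0 for HSPA8), the 5 with most peaks, and the 5 of the gene lists in most lists. Others were named with the list they belong to or after their values were seen. A peak on several protein-coding genes (72 peaks) took the name of the shortest. Some genes that these rules pick are not reported here. The members, lists and rules were chosen with earlier results of these data known. Alternatives were equal numbers of peaks by score, a stricter score, another denominator, reciprocal overlap of 50%, the gene's strand alone, merging within 50 bp, leaving out each replicate, and a replicate block. The tools were scipy 1.17.1, pandas 2.3.3 and numpy 2.4.6 under Python 3.11.15, with matplotlib 3.10.9 for plots. The procedures were tested on simulated lists.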

Additional observations from a re-analysis of the deposited data

How the results depend on the processing

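Of 110 values under other settings, 77 were called the same, 19 moved and 14 reversed. Some of the 77 could not change. Width and score rank do not depend on the overlap rule, and a replicate block leaves the mean share difference as it was. The tally therefore does not measure stability. For differences and the ratio of peak numbers, the same means an unchanged direction alone, whatever the size. Without HSPA8 replicate 1, within-bait minus between-bait overlap thus counted as the same at -42.1 points against -3.31. Replicate overlaps had to stay inside the main interval, and gene counts and the rank order difference near the main value. The exact permutation tests between baits cannot fall under 0.33, so they do not measure stability, and read depth is unknown. With the score at or above each list's median, the share difference was 3.08 points and the ratio of peak numbers 0.559. Replicate overlap was then 47.2% and 53.1% for HSPA1A and 26.1% and 88.5% for HSPA8, with within-bait minus between-bait overlap at -11.9 points, 48 and 23 genes in both replicates and 23 in all 4 lists, on fewer peaks by construction. With the 1348 top-scoring peaks of each list, overlap was 57.7% and 49.3% for HSPA1A and 36.9% and 50% for HSPA8, and 60 HSPA1A genes were in both replicates. Counting the gene's own strand alone, these were 44 and 21 genes, and 16 in all 4 lists. Over all peaks, scaffolds and sex chromosomes included, the share difference was 1.80 points.

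Leaving out each replicate in turn gave share differences from -12.2 to 9.50 points, ratios from 0.289 to 1.83, within-bait minus between-bait overlaps from -42.1 to 14.1 points and own-strand differences from -24.6 to 8.24 points. For share and ratio, leaving out HSPA1A replicate 2 (2.20 points and 0.811) or HSPA8 replicate 1 (9.50 points and 0.289) turned the direction. The difference in rank order, same number minus same bait, was 0.752. It ranged from 0.592 to 0.685 without a replicate and was 0.616 with 1 region per gene. The causes were not tested.

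With the replicate block the ratio was 0.763, as a geometric mean over pairs (sign-flip permutation, p = 1). Crossing the numbers cannot change this mean. Whether the numbers pair the samples was checked by deviations from the bait mean: these correlated at 0.918 in log2 score over 63 regions and at -0.139 in presence over 1318 regions. With 2 pairs, no pairing was taken from this.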

Other observations

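At 9 places a region on a protein-coding gene had a partner on the other strand that shared some or nearly all of its bases. At SLC26A3 the minus-strand region scored 273 and 680 with HSPA1A and 135 and 294 with HSPA8, and its plus-strand partner at chr7:107770197-107770269 scored 60 and 63 in the lists of replicate 1 and was in neither list of replicate 2. At SLBP the plus-strand region scored 169, 382, 73 and 162, and its minus-strand partner at chr4:1707226-1707297 scored 28 and 35, again in the lists of replicate 1 alone. Such a pair was also found at UHRF2, NGB, SYPL1, CCNT1, KIAA1671 and LOC102724250, where the weaker partner scored at most 6. These genes were chosen after their values were seen.

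Peaks that end where the next begins, which formed 6 runs, held part of the lowest scores. On LOC128462377, 8 abutting peaks of HSPA8 replicate 1 with scores of 2 to 4 covered chr16:89400079-89400457 on the gene's strand. On DLG1, a scaffold protein gene, 6 peaks of HSPA1A replicate 1 with scores of 1 to 4 covered chr3:197132602-197132831. On SDK1, an adhesion protein gene, 4 peaks of HSPA8 replicate 1 with scores of 0 to 3 covered chr7:3582259-3582456. Of the peaks scoring under 5, 6 of 12 in HSPA1A replicate 1 and 12 of 31 in HSPA8 replicate 1 lay in such runs, and 0 of 6 and 0 of 2 in the lists of replicate 2.

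A width of exactly 75 bp was held by 39, 8, 72 and 5 of the other peaks on chromosomes 1 to 22 in the 4 lists. Of the peaks on protein-coding genes alone, it was held by 44 of 532 and 0 of 284 in the HSPA1A lists. In the HSPA8 lists it was held by 134 of 745 and 1 of 118 of these peaks. Of those in replicate 1, 42 of 44 and 132 of 134 were in no other list, and their median score was 5. They lay on the gene's strand in 35 of 41 and 97 of 105 cases.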
